A study of Homo sapiens with 4 samples.

Results

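The S phase and DNA replication genes described here are 42 listed genes, taken by symbol from the 19577 gene rows of single cell transcriptomes of MCF10A, an untransformed human mammary epithelial cell line. The list was used as given, and all 42 genes had counts in each of the 4 plates. Cells carrying H2B-GFP were grown on fibronectin-coated glass as a circular patch seeded with 10000 cells, and cultured for 6 days. In the low-resolution experiment, the regions to be sorted were rings of 1000 to 1500 μm, and in the high-resolution experiment they were bands of 250 μm at the edge and the inside of the patch, labelled by activating the dyes JF646 and JF549 with light. Each experiment had 2 biological replicates of 1 plate of 384 wells each, processed by SORT-seq, where each transcript carries a unique molecular identifier (UMI). All 4 plates share the cell line, medium, day and dyes, and no untagged patch was among them. Because wells were filled by sorting regions, and wells were not assigned to regions here, the mix of cells on a plate is not the mix of the patch, and a difference between the experiments cannot be told apart from a difference in which regions were sorted.

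Before a cell divides, it copies its genome once. In G1 the helicase MCM2-7 is loaded onto origins with the help of CDC6, and in S phase CDC45 and the GINS complex switch it on, primase and polymerase alpha start the strands, and the sliding clamp PCNA holds the polymerases on DNA. Ribonucleotide reductase, thymidylate synthase and thymidine kinase supply the nucleotides, and chromatin factors rebuild nucleosomes and DNA methylation behind the fork. Many of these genes are switched on together at the end of G1 by E2F transcription factors, whereas G2/M genes such as CCNB1, the mitotic cyclin B1, and TOP2A, the topoisomerase that untangles chromosomes, are induced later.

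The plates held 11709628 to 14992348 counts. A selection on features (2000 to 9000) and mitochondrial counts (under 40%) left 1146 cells of 1536 wells (291 and 271 in low-resolution replicates 1 and 2, 291 and 293 in high-resolution replicates 1 and 2), with a median of 30118 to 40893 counts per cell, higher in both high-resolution plates. All 6 basal and all 5 luminal epithelial markers were above 3 counts in every plate. The basal markers summed to 4255 and 4219 CPM (counts scaled to an equal plate total) in the low-resolution plates, against 5661 and 5976 CPM at high resolution. The luminal markers summed to 771 and 810 against 738 and 739 CPM. Their part in the differences between the experiments was not tested. The sums were 6.64 to 13.1 CPM for 5 fibroblast markers, 6.74 to 11 for 4 leukocyte markers and 18.8 to 23.4 for 4 endothelial markers. By their file names, 3 plates shared a flow cell, and low-resolution replicate 1 was run separately.

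The sequences upstream of these genes were examined first, because the S phase program is defined by shared regulation. RefSeq promoter windows (GRCh38.p14, 250 bases before to 50 bases after a start site) were available for 34 of the 42 genes. The E2F motif was searched as TTTCCCGC, TTTGGCGC, TTTCGCGC and TTTGCCGC on both strands, and matches on opposite strands can overlap. It was found in 17 of 34 S phase promoters (50%), against 3.33% of 27305 promoters of the same length and 4.44% of those of protein-coding genes. Among 45 promoters of other replication genes it was found in 35.6%, and among 44 promoters of G2/M genes in 6.82%. The cell cycle homology region of late genes, searched as TTTGAA and TTCGAA, had the opposite distribution, with 8.82% of S phase promoters, 72.7% of G2/M promoters and 16.6% of all promoters. CCAAT, which can share its end base with an E2F match, was found in 70.6% of S phase promoters and 68.2% of G2/M promoters, against 35.7% of all promoters. A match gives only the letters in this window and is not evidence of binding.

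In 30 of the 34 windows the start site was the outermost start of the gene in RefSeq, whereas in CDC45, EXO1, RRM2 and UHRF1 it lay inside the gene, by 454, 218, 171 and 6421 bases.

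Below are the 250 bases before the start site used in this table for MCM6 (chr2:135876444-135876693, minus strand), DTL (chr1:212035498-212035747, plus strand), PCNA (chr20:5126623-5126872, minus strand), UHRF1 (chr19:4909251-4909500, plus strand), MCM7 (chr7:100101398-100101647, minus strand) and RRM2 (chr2:10122489-10122738, plus strand), with E2F matches in capitals. They are shown because MCM6 and DTL are among the earliest genes in the order given further on, PCNA and UHRF1 follow, MCM7 stands apart from the other MCM genes, and RRM2, among the latest and most abundant, has no match in a window that lies around an internal start site.
MCM6: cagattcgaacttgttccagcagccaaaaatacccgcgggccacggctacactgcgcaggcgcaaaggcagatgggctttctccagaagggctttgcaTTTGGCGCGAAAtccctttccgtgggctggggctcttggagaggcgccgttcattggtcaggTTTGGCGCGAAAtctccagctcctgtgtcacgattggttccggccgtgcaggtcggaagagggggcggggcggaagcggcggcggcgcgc
DTL: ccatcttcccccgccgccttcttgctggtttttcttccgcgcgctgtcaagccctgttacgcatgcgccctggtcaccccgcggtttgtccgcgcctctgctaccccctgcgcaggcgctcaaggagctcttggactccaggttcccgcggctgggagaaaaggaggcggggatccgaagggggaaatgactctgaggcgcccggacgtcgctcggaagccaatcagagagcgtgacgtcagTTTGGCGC
PCNA: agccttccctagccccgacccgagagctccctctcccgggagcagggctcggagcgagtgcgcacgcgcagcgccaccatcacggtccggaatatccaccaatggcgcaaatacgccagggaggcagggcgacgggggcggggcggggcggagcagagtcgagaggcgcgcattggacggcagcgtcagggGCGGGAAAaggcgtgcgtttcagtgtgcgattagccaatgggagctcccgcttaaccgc
UHRF1: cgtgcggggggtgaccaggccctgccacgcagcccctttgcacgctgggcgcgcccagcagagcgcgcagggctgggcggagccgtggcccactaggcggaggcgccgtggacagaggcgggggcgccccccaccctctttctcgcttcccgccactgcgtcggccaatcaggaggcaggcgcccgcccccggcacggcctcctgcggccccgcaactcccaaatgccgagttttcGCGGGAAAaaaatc
MCM7: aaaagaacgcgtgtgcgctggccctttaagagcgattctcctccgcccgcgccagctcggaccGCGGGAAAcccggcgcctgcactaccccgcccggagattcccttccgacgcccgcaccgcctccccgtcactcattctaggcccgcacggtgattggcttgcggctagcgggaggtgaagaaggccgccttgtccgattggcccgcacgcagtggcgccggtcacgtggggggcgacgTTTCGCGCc
RRM2: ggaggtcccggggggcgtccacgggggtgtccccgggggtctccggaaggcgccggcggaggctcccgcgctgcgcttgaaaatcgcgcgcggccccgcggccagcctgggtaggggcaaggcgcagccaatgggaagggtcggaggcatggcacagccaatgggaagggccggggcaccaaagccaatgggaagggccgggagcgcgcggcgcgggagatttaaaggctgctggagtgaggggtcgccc
MCM6 had 4 matches in 2 overlapping pairs and MCM7 had 2 matches. The 17 windows without a match include late genes of the order given further on (RRM1, RRM2 and TK1) and early ones (UNG, CHAF1B and TIPIN).

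To sort the cells by phase, each cell was given an S score, which is the mean log-normalized level of the 42 genes minus that of other genes of similar abundance, and a G2/M score over 54 genes. A cell was called S when the S score was above 0 and above the G2/M score. In the low-resolution plates 43 of 291 cells (14.8%, 95% interval 10.9 to 19.4%) and 36 of 271 cells (13.3%, 9.48 to 17.9%) were called S. In the high-resolution plates these were 69 of 291 cells (23.7%, 18.9 to 29.02%) and 70 of 293 cells (23.9%, 19.1 to 29.2%). Intervals are exact binomial (Clopper-Pearson) and cover counting error only. G2/M cells made up 17.2% and 17.0% of the low-resolution and 23.0% and 24.2% of the high-resolution cells. The share of S cells is not the share of all cells with the program on, since cells with a higher G2/M score are left out. Of the cells called G2/M, 40 of 50 and 42 of 46 at low resolution had an S score above 0. At high resolution these were 40 of 67 and 40 of 71.

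The share of S cells was 9.77 percentage points higher in the high-resolution plates, and the plates of the experiments did not overlap. With 2 plates against 2, the exact two-sided permutation test gave p = 0.33, the smallest value this permutation test can give with so few plates. The call is a range on a score and not a cell type, and between 29 and 39 cells per plate had an S score within 0.05 of the cut. Scoring all plates together, an alternative chosen after seeing the data, gave 13.7%, 11.4%, 29.2% and 27.3%, and a difference of 15.7 points. The plot of S against G2/M scores is coloured by these calls, which are cuts on the plotted scores.

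**Figure D1:**
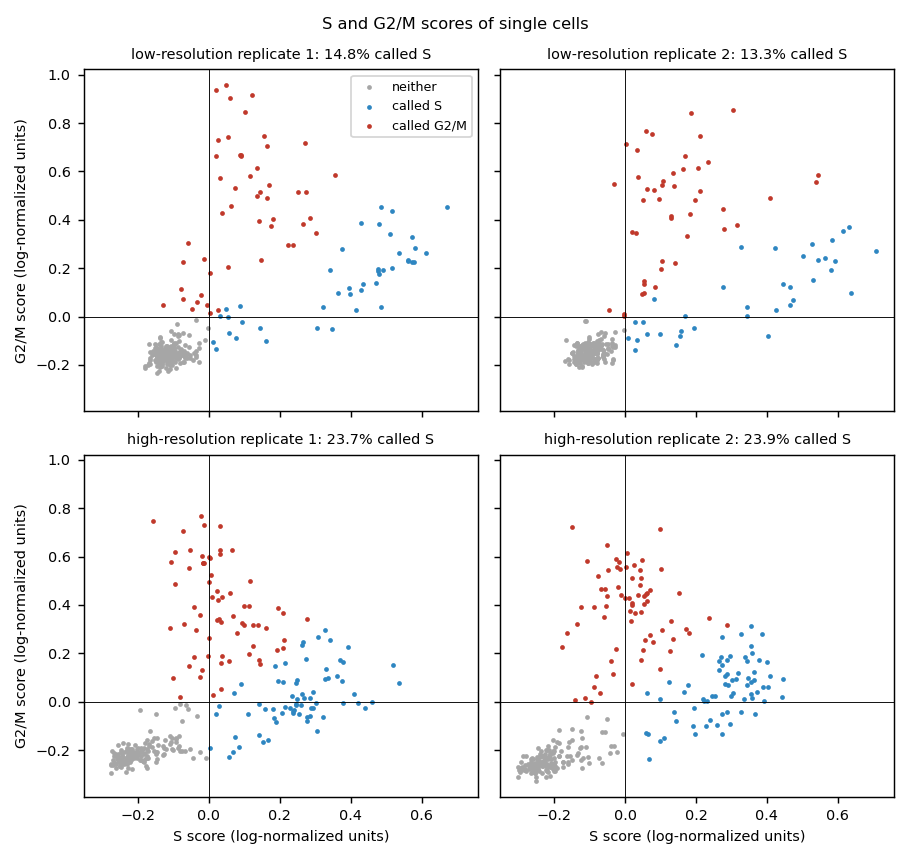
Each point is 1 cell, with its S score on the x axis and its G2/M score on the y axis (both in log-normalized units), in 4 panels for the 4 plates. Blue cells were called S, red cells G2/M and grey cells neither, and the share of blue cells is 14.8% and 13.3% in the low-resolution plates, against 23.7% and 23.9% at high resolution.

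The sum of the 42 genes is not a separate observation, since the S call is made from the same genes. Pooled over the cells of a plate they made up 18.9 and 15.4 of every 10000 counts at low resolution, against 23.97 and 25.1 at high resolution. The median cell had 6.89 and 5.92 against 14.9 and 15.3 per 10000. Cells called S had 51.1 and 42.6 per 10000 in the low-resolution and 46.0 and 50.6 in the high-resolution plates, which overlap. Cells called neither S nor G2/M had 5.93 and 4.81 against 7.58 and 7.35 per 10000. Each class of cells was then set to its mean level over the 4 plates, so that only the shares of counts in the classes varied. The high-resolution plates came to 1.29 times the low-resolution plates, against 1.43 times as measured. The classes are cut on a score of these 42 genes, so these ratios are given as a description.

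The number of genes detected is given as a description, since the call uses these genes. A median of 35, 32, 35 and 36 of the 42 genes was detected in S cells of low-resolution replicates 1 and 2 and high-resolution replicates 1 and 2, against 10, 9, 11 and 12 in cells called neither. Depth differs between these classes, with medians of 42387 to 50141 counts in S cells and 26211 to 34185 in the latter. After each cell was thinned to 10000 UMIs (2 to 7 cells per plate were shallower and left out) the medians were 23, 20.5, 21.5 and 23 against 5, 4, 6 and 5 genes. At this equal depth, 30.7% and 26.9% of the low-resolution cells and 52.1% and 50.9% of the high-resolution cells had at least 10 of the 42 genes.

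Next, the summed counts of each gene were compared between the experiments with edgeR's quasi-likelihood test, with Benjamini-Hochberg adjustment over all 12437 genes tested. Of the 42 genes, 41 passed the filter on low counts, 21 rose in the high-resolution plates and none fell, including at an unadjusted p under 0.05 and with DESeq2. Over all genes, 12.4% passed in either direction, 6.26% rose and 6.18% fell. All 41 fold changes were above 0, with a median log2 fold change of 0.64 (1.56-fold), against -0.02 over all genes. In 36 of the 41 genes both high-resolution plates were above both low-resolution plates, which was the case for 28.3% of all genes. Without low-resolution replicate 2, the number of genes that rose was 14. In the summed counts of a gene, a different number of cells in S phase and a different amount of RNA per cell cannot be told apart. Per spike-in count, S cells had a median of 101 and 95.8 other counts at low resolution, against 155 and 132 at high resolution. G2/M cells had 114 and 103 against 145 and 160, and cells called neither had 66.4 and 67.8 against 101 and 94.5. The part of these ratios in the fold changes was not tested.

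**Figure D2:**
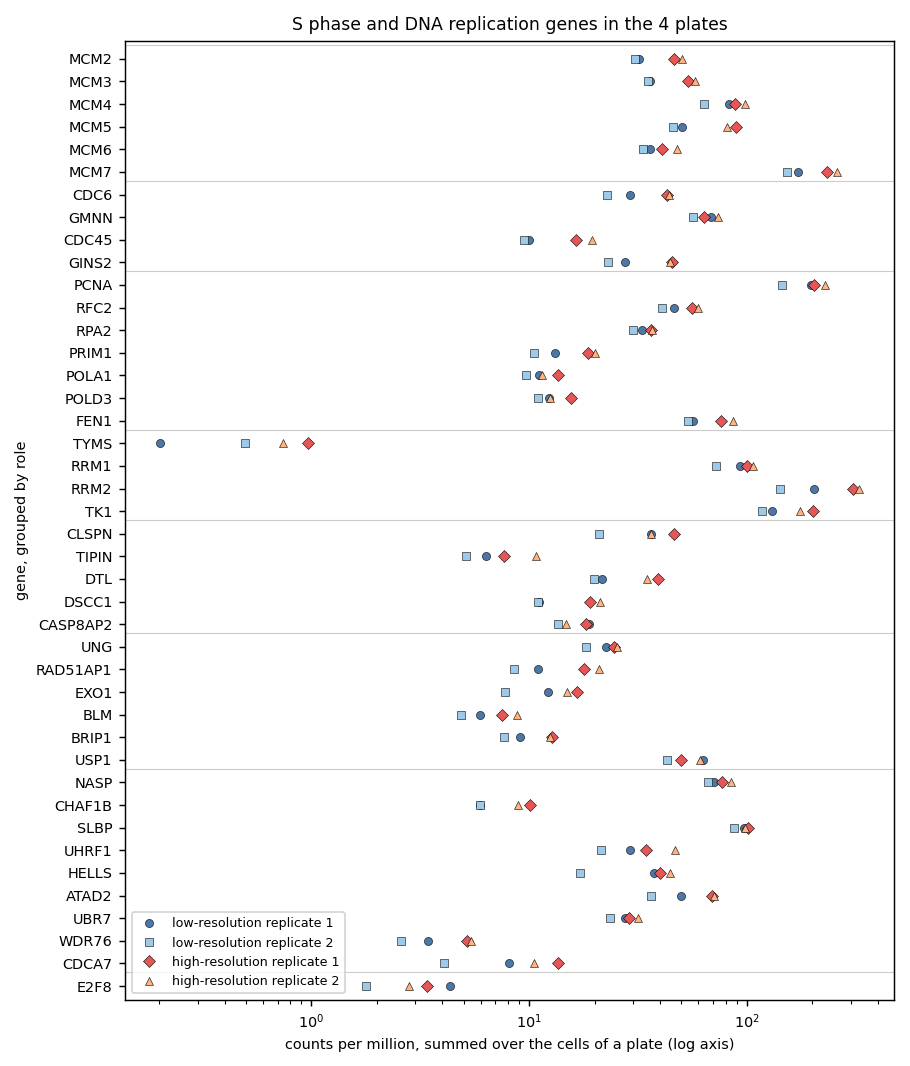
CPM of the 42 genes (log x axis), summed over the cells of each plate, with genes on the y axis grouped by role and 1 symbol per plate. Levels run from under 1 CPM for TYMS to 329 CPM for RRM2, and the red and orange high-resolution symbols lie to the right of both blue ones in 37 of the 42 genes.

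The replicative helicase genes rose in 4 of 6 cases. MCM5 had 50.3 and 45.6 CPM at low resolution and 89.1 and 81.0 CPM at high resolution, a log2 fold change of 0.86 ± 0.12 (SE, edgeR adjusted p = 0.000910). MCM7, the most abundant of them in these 3' counts, had 172 and 153 against 235 and 260 CPM (0.64 ± 0.11, edgeR adjusted p = 0.00312). MCM2 and MCM3 rose by 0.65 and 0.68 on the log2 scale. For MCM4 and MCM6 the plates did not overlap either, but log2 fold changes of 0.39 and 0.39 had adjusted p-values of 0.0700 and 0.0714 by edgeR.

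Genes that load and activate the helicase rose in 3 of 4 cases. CDC45, which travels with the helicase, had 10.0 and 9.51 against 16.4 and 19.4 CPM (log2 fold change 0.91 ± 0.18, edgeR adjusted p = 0.00670), and did not pass at 10000 UMIs per cell (0.75, edgeR adjusted p = 0.128). GINS2, a GINS subunit, had 27.7 and 23.0 against 45.5 and 44.4 CPM (0.86 ± 0.14, edgeR adjusted p = 0.00198). CDC6, the loader, had 29.1 and 22.9 against 42.8 and 43.8 CPM (0.77 ± 0.14, edgeR adjusted p = 0.00454). The exception was GMNN, which encodes geminin, the inhibitor of loading, with 68.6 and 56.5 against 63.7 and 73.6 CPM. Its plates overlapped, and the log2 fold change was 0.17 (edgeR adjusted p = 0.405).

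Of 7 genes for polymerases, the clamp and Okazaki fragments, 3 rose. They were PRIM1, the catalytic primase subunit (0.75 ± 0.17), FEN1, the flap nuclease (0.60 ± 0.12), and RFC2, a clamp loader subunit (0.45 ± 0.12). On leaving out any one of the plates, where the remaining plate of that experiment is assumed to vary like the other experiment, RFC2 kept a log2 fold change of 0.41 to 0.52 but no longer passed (edgeR adjusted p = 0.0525 to 0.149), and PRIM1 did not pass without low-resolution replicate 2 (0.64, edgeR adjusted p = 0.0584) or at 10000 UMIs per cell (0.76, edgeR adjusted p = 0.109). PCNA, the clamp itself, had 197 and 146 against 205 and 228 CPM, so that low-resolution replicate 1 lay close to the high-resolution plates. Its log2 fold change of 0.37 ± 0.13 had an adjusted p of 0.0784 by edgeR. Without low-resolution replicate 1 it was 0.57, and with a block for replicate number it was 0.38 (edgeR adjusted p = 0.0295). POLA1, POLD3 and RPA2 had log2 fold changes of 0.24 to 0.30 and did not pass.

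RRM2, the regulated subunit of ribonucleotide reductase, had 204 and 142 CPM at low resolution and 308 and 329 CPM at high resolution. It was the most abundant of the 42 genes except in low-resolution replicate 2. There MCM7 (153 CPM) and PCNA (146 CPM) lay above it. RRM2 rose by 0.92 ± 0.14 on the log2 scale (edgeR adjusted p = 0.00150). RRM1, the other subunit of the same enzyme, had 93.0 and 72.1 against 100.3 and 107 CPM (0.37 ± 0.12, edgeR adjusted p = 0.0740). TK1, thymidine kinase, had 130 and 118 against 202 and 176 CPM (0.65 ± 0.12, edgeR adjusted p = 0.00411). TYMS, thymidylate synthase, was nearly absent from the tables, with 2, 5, 11 and 10 counts per plate, and was not tested. On the same locus, ENOSF1 lies on the opposite strand (chr18:670324-712676) and overlaps TYMS (chr18:657604-673578) by 3255 bases in GENCODE 29, and it had 264, 216, 221 and 273 counts. How reads at this locus were assigned was not tested, so the TYMS counts are not read as its expression.

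Among fork and checkpoint genes, DTL, the substrate receptor of a PCNA-dependent ubiquitin ligase, had 21.5 and 19.8 against 39.1 and 34.8 CPM (0.87 ± 0.14, edgeR adjusted p = 0.00246). DSCC1, part of an alternative clamp loader, had 11.1 and 11 against 19.1 and 21.3 CPM (0.90 ± 0.17, edgeR adjusted p = 0.00533), and did not pass at 10000 UMIs per cell (0.64, edgeR adjusted p = 0.167). CLSPN and TIPIN did not pass, nor did CASP8AP2, which was only listed with this group. The log2 fold change of CLSPN was 0.57, and 0.97 without low-resolution replicate 1. With a block for replicate number, CLSPN (0.60, edgeR adjusted p = 0.00415) and TIPIN (0.71, edgeR adjusted p = 0.0366) passed. Of the repair genes, RAD51AP1, a recombination factor, had the largest fold change of the 41 genes tested, with 11.02 and 8.52 against 17.9 and 20.9 CPM (1.03 ± 0.18, edgeR adjusted p = 0.00419). EXO1 and BRIP1 rose with adjusted p-values of 0.0491 and 0.0492 by edgeR, just inside the threshold. EXO1 was lost in 5 of 10 alternatives, with log2 fold changes of 0.44 to 0.72 there against 0.69, and BRIP1 in 8, with 0.55 to 0.73 against 0.63. BLM (0.63, edgeR adjusted p = 0.0865), UNG (0.32) and USP1 (0.11) did not pass.

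Of 9 chromatin and methylation genes, 4 rose. They were CDCA7 (1.03 ± 0.27), ATAD2 (0.74 ± 0.14), UHRF1 (0.72 ± 0.17), which brings maintenance methylation to new DNA, and CHAF1B (0.71 ± 0.21), a subunit of the histone chaperone CAF-1. Without low-resolution replicate 2, CDCA7 (0.65, adjusted p = 0.124), UHRF1 (0.55, adjusted p = 0.0902) and CHAF1B (0.75, adjusted p = 0.0859) no longer passed in edgeR, and CHAF1B did not pass on leaving out any other plate either (0.61 to 0.82, adjusted p = 0.0796 to 0.238). CDCA7 did not pass without high-resolution replicate 1 (0.84, edgeR adjusted p = 0.0520), nor UHRF1 without high-resolution replicate 2 (0.50, edgeR adjusted p = 0.127). WDR76 had 3.44 and 2.58 against 5.16 and 5.39 CPM, with a log2 fold change of 0.85 and an adjusted p of 0.0596 by edgeR. HELLS, a chromatin remodeller, had 37.4 and 17.0 against 39.8 and 44.4 CPM, so that the low-resolution replicates differed more from each other than replicate 1 did from the high-resolution plates. Its log2 fold change of 0.68 had an adjusted p of 0.0865 by edgeR, and without low-resolution replicate 1 it was 1.30 (edgeR adjusted p = 0.00199). SLBP, which binds histone mRNA, and NASP, a histone chaperone, had log2 fold changes of 0.15 and 0.28 and did not pass. E2F8, a repressor of E2F targets, had 4.35 and 1.78 against 3.41 and 2.81 CPM.

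**Figure D3:**
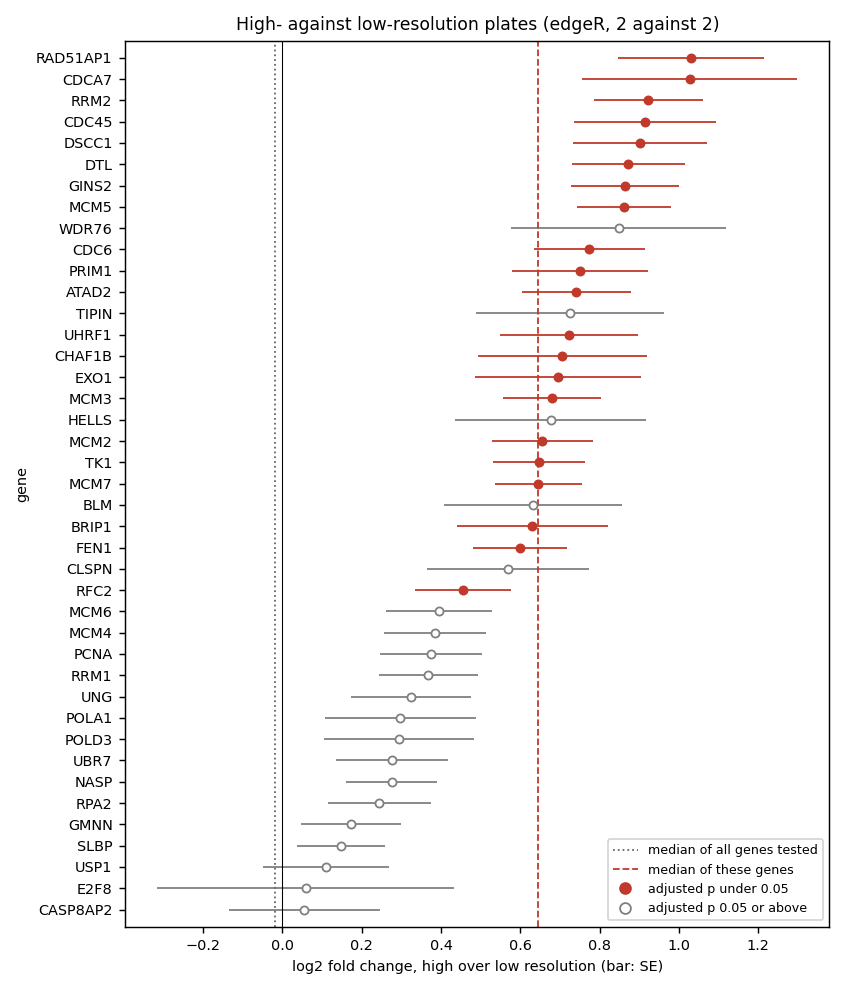
Log2 fold change of each of the 41 genes tested, high- over low-resolution plates (x axis, bars are SE, n = 2 plates against 2), with genes on the y axis sorted by size. Red filled points have an edgeR adjusted p under 0.05, the dashed line is the median of these genes (0.64) and the dotted line that of all genes tested (-0.02).

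Of the 51 genes on a list of other replication genes, 23 rose, 28 did not pass and none fell (median log2 fold change 0.46). ORC4 (-0.22) and POLD4 (-0.15) had values below 0. The largest were ORC1 (1.10), an origin recognition subunit, PRIM2 (1.02), the large primase subunit, POLE2 and POLA2 (both 0.93), RFC4 (0.91), WDHD1 (0.86), RFC3 (0.84), MCM8 (0.79), GINS1 (0.76) and E2F7 (0.76). Of the 54 G2/M genes, 19 rose and none fell (median 0.40). Of 4 EMT markers, 3 passed in edgeR, with log2 fold changes of 0.94 for VIM, 0.77 for FN1 and -0.68 for CDH1, and EPCAM had -0.11 (edgeR adjusted p = 0.566).

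Across the 41 genes, the fold change tended to be larger for genes that depended more on the class of the cell. This includes 20 genes that did not pass. The log2 ratio of S cells over cells called neither, with each gene left out of its own score, had a Spearman rho of 0.69 with the log2 fold change between the experiments, whereas the position in the order described next had a rho of 0.04. The largest log2 ratios of S cells over cells called neither were those of DTL (5.42), EXO1 (5.19), CDC45 (5.10) and BLM (5.06). They rest on few counts, with as few as 5, 3, 2 and 1 in a class of a plate. These correlations are across genes that share the same 4 libraries, and are given without p-values.

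To order the genes against G2/M, the cells were placed by the angle between their S and G2/M scores, where 0 degrees is a high S score and 90 degrees a high G2/M score, and the angle at which each gene peaked was fitted per plate without that gene in the scores. Leaving out TYMS, the other 41 genes peaked before TOP2A in each plate (85.5 ± 3.9 degrees, SD, n = 4 plates) and CCNB1 (102.3 ± 2.3). Both axes are built from these same lists, and leaving out 1 gene at a time does not change that. That the S phase genes lie before the G2/M genes therefore largely follows from the lists, and is given as a description. The angle follows scores of cells at a single time point and is not a measure of time. The order of the 42 genes had a Spearman rho of 0.58 to 0.79 between pairs of plates, and 36 genes had an SD under 10 degrees.

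UNG, which removes uracil from DNA, was first, at -20.7 ± 2.7 degrees. It was followed by MCM6 (-10.4 ± 5.7), CHAF1B (-10.1 ± 3.9), TIPIN (-9.84 ± 8.2), DTL (-9.84 ± 4.5), WDR76 (-9.75 ± 8.5) and MCM5 (-8.35 ± 1.3), which lie within each other's spread. PCNA was in the middle of the order (-1.36 ± 3.5), with MCM4 (1.44 ± 4.2) and CDC45 (3.00 ± 3.1). Then came UHRF1 (11.9 ± 4.9), ATAD2 (12.5 ± 5.3), BLM (17.5 ± 7.8) and RAD51AP1 (22.6 ± 5.6). The last were the nucleotide supply genes RRM1 (32.3 ± 4.2), RRM2 (33.6 ± 3.1) and TK1 (41.6 ± 2.1), leaving out TYMS, whose few counts gave 50 ± 32. RRM1 and RRM2 did not differ beyond their spread, and CDK1, the earliest of the 10 G2/M reference genes, was at 67.9 ± 5.9.

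**Figure D4:**
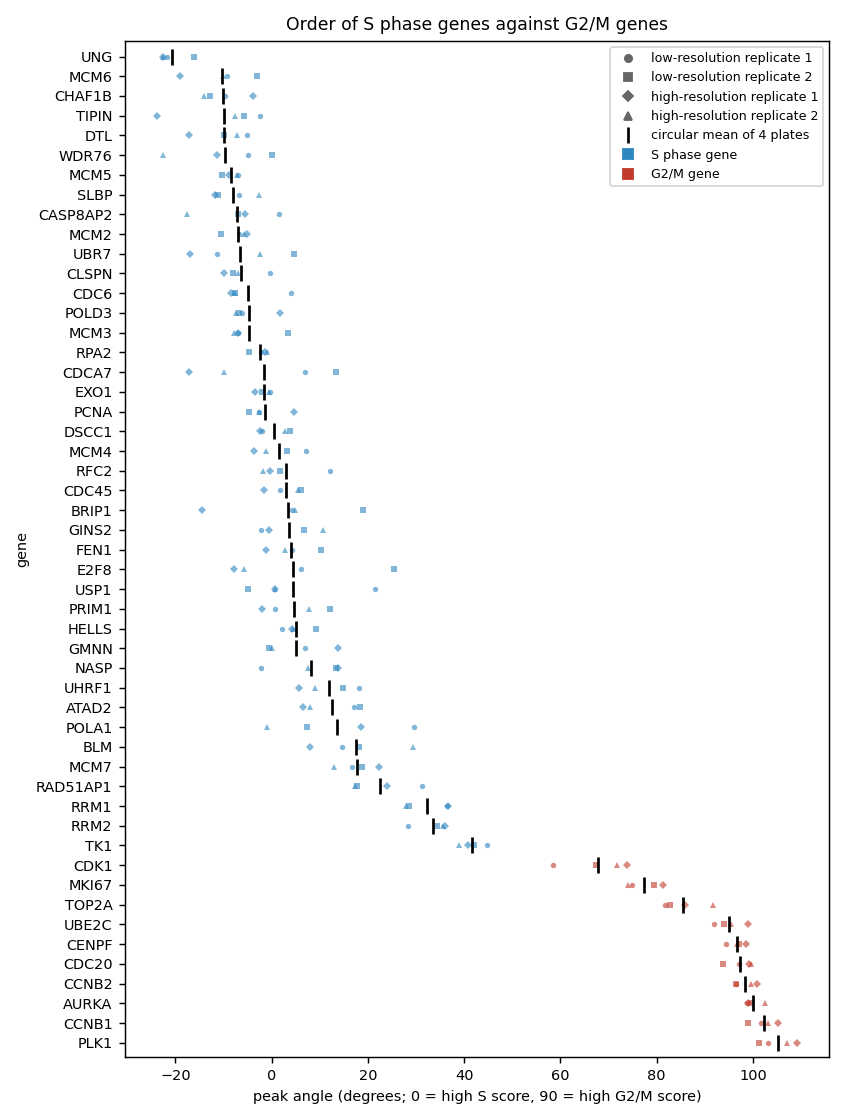
Peak angle in degrees (x axis) of 41 S phase genes (blue, without TYMS) and 10 G2/M genes (red) on the y axis, with 1 symbol per plate and a black bar for the circular mean of 4 plates. The S phase genes run from -20.7 degrees for UNG to 41.6 for TK1, and the G2/M genes start at 67.9 with CDK1.

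MCM7 stood apart from the other 5 MCM genes. It peaked at 17.7 ± 3.4 degrees, against -10.4 to 1.44 for MCM2 to MCM6, and it lay later than their mean by 21.3, 22.2, 31.1 and 19.4 degrees in the 4 plates. The MCM2 to MCM7 genes otherwise varied together, with a median Spearman rho of 0.55 over 15 pairs across cells, against 0.45 over the 351 pairs of S phase genes found in at least 20% of cells. At 10000 UMIs per cell these medians were 0.37 and 0.26. The highest pair was RRM2 with TK1 (0.71), followed by MCM7 with RRM2 (0.70).

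Levels within the cell classes are given as a description, since the classes and the angle come from the same scores. DTL had 0.923 counts per 10000 in S cells, 0.232 in G2/M cells and 0.0324 in cells called neither, and it was 1.99 ± 0.10 higher on the log2 scale in S than in G2/M cells. In low-resolution replicate 1, DTL was found in 79.5% of S cells and 2.53% of cells called neither, and in high-resolution replicate 1 in 91.3% and 16.1%. UNG was 1.93 ± 0.43 higher in S than in G2/M cells on the log2 scale. TK1 had 2.73 counts per 10000 in S cells and 2.72 in G2/M cells, a log2 ratio of 0.00 ± 0.19, and RRM1 had a ratio of 0.14 ± 0.16. CCNB1, with 0.596 in S and 3.75 in G2/M cells, had a log2 ratio of -2.68 ± 0.34. In 38 of the 42 genes S cells were above G2/M cells in all 4 plates.

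Of the genes tested between the experiments, 9 of 16 with an E2F match and 9 of 17 without one rose. Leaving out TYMS, genes with a match peaked between -10.4 and 17.7 degrees (median -3.17), and genes without one between -20.7 and 41.6 degrees (median 4.43).

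S and G2/M scores rose together across all cells, where Spearman's rho was 0.71 and 0.72 at low resolution and 0.75 and 0.75 at high resolution. This is a correlation across cells of 1 plate, which share a library, and it contains the large group of cells low in both. Among cells called S or G2/M alone, rho was 0.06 and 0.07 at low resolution (93 and 82 cells called) and -0.51 and -0.49 at high resolution. These cells were selected by the same scores, and with all plates scored together rho was -0.07 and -0.19 at low resolution against -0.19 and -0.27 at high resolution.

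Outside the 42 genes, the genes most like the S score were MYBL2, a transcription factor of the cell cycle (mean rho over 4 plates 0.73 ± 0.04), ASF1B (0.71 ± 0.07), KIAA0101 (0.69 ± 0.04), which encodes the PCNA-associated factor PCLAF, H2AFZ (0.69 ± 0.05), TUBA1B (0.68 ± 0.01), TUBB (0.67 ± 0.03), MAD2L1 (0.67 ± 0.02), MKI67 (0.66 ± 0.04), ESCO2 (0.66 ± 0.04) and DEK (0.66 ± 0.06). KIAA0101 peaked at 45.8 ± 4.6 degrees, next to TK1. The lowest were GRN (-0.50 ± 0.07), AHNAK2 (-0.49 ± 0.05), PSAP (-0.49 ± 0.04), NEAT1 (-0.45 ± 0.01) and MSLN (-0.42 ± 0.05). Where a gene was detected in 20% of cells or more on each plate, a rho of at least 0.3 in all 4 plates was reached by 22 of 27 S phase genes, each with itself left out of the score, and by 4% of 8005 other genes.

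Finally, the program was set against the epithelial-to-mesenchymal transition (EMT), in which epithelial cells lose adhesion genes and gain mesenchymal ones. Each cell was given an EMT score, the mesenchymal minus the epithelial score by Gene Set Variation Analysis (GSVA). The S score had a rho of 0.12, 0.12, 0.10 and 0.12 with the EMT score in low-resolution replicates 1 and 2 and high-resolution replicates 1 and 2 (mean 0.115 ± 0.0085, SD). Given the G2/M score, which had a rho of 0.14 to 0.24 with the EMT score, it was -0.07, -0.05, 0.00 and -0.05. Given the share of mitochondrial counts, which had a rho of -0.17 to -0.28 with the S score and -0.30 to -0.48 with the EMT score, it was 0.06, 0.06, 0.00 and -0.02. The S score also had a rho of 0.22 to 0.36 with the total count of the cell.

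The S score fell with both parts of the EMT score, with a rho of -0.21 to -0.24 with the epithelial and -0.07 to -0.11 with the mesenchymal score. FN1, the fibronectin gene, had a rho of -0.04 to -0.15 with the S score, and 4.55 ± 1.36 counts per 10000 in S cells against 8.07 ± 3.6 in cells called neither (SD, n = 4 plates). In low-resolution replicate 1 the order was reversed, with 5.30 in S cells and 4.87 in cells called neither. VIM, vimentin, had a rho of 0.01 to 0.11, EPCAM, an epithelial adhesion molecule, 0.02 to 0.17, and CDH1, E-cadherin, -0.11 to 0.06. No marker had a rho beyond 0.17 in size with the S score.

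By tertile of the EMT score, S cells did not follow the same course in the experiments. In low-resolution replicate 1 the share was 10.3%, 21.6% and 12.4% from the lowest to the highest tertile, and in replicate 2 it was 8.79%, 18.9% and 12.2%, highest in the middle. In high-resolution replicate 1 it was 17.5%, 23.7% and 29.9%, and in replicate 2 it was 21.4%, 24.5% and 25.8%, highest in the top tertile. The binomial intervals of neighbouring tertiles overlap in every plate, and this difference was not tested.

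**Figure D5:**
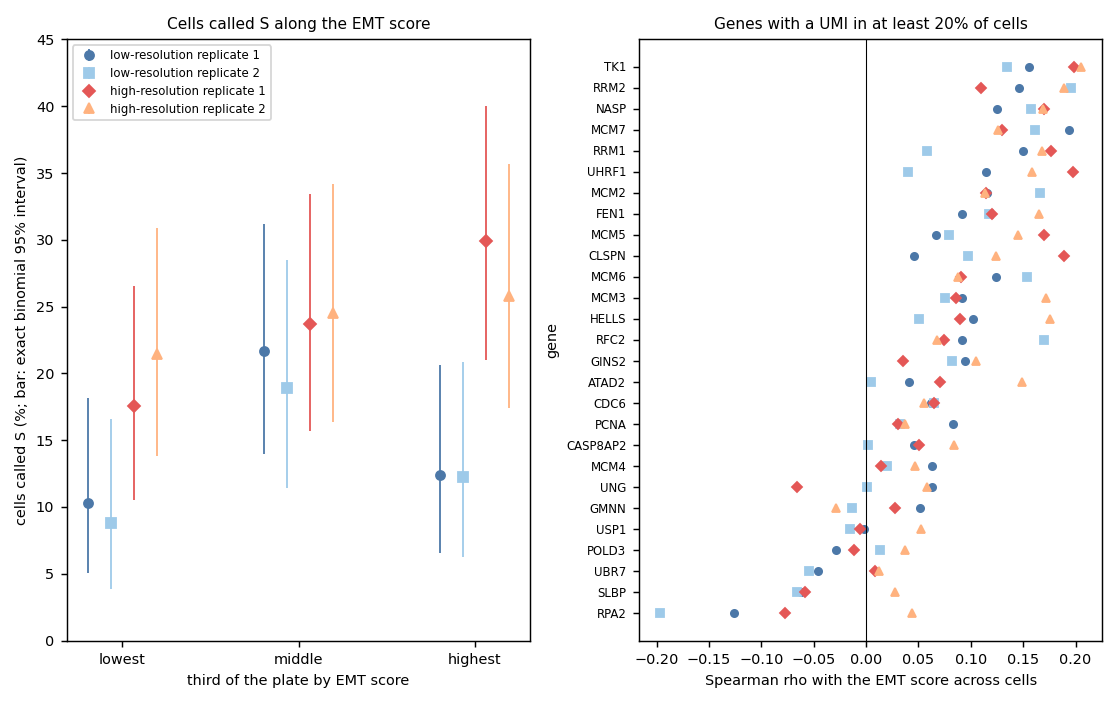
Left, share of cells called S (y axis, %, bars are exact binomial 95% intervals) in the lowest, middle and highest tertile by EMT score, 1 symbol per plate, peaking in the middle tertile at 21.6% and 18.9% in the low-resolution plates. Right, Spearman rho of 27 S phase genes with the EMT score across cells (x axis), 1 symbol per plate, from RPA2 at the bottom (mean -0.09) to TK1 at the top (mean 0.17).

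Of the 27 S phase genes detected in 20% of cells or more on each plate, 20 had a positive rho with the EMT score in all 4 plates, none had a negative one throughout, and 7 were mixed. Among 7959 genes measured as widely and outside the EMT lists, 34.5% were positive and 24.1% negative in all plates. The median over the 27 genes was 0.10, against 0.02 over the 7959 genes, whose median size of rho regardless of sign was 0.08. The highest values were those of TK1 (0.17 ± 0.03), RRM2 (0.16 ± 0.04), NASP (0.16 ± 0.02) and MCM7 (0.15 ± 0.03), and the lowest that of RPA2 (-0.09 ± 0.10), a subunit of the single-strand binding protein RPA, which was negative in 3 plates and 0.04 in high-resolution replicate 2. These single-gene values were not adjusted for the G2/M score or the mitochondrial share. For the S score, rho was -0.07 to 0.00 given the former and -0.02 to 0.06 given the latter.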

How the data were processed

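Single MCF10A cells from 4 patches (2 plates per experiment, the plate being the replicate) were sequenced by SORT-seq. The authors deposited expected counts per well, that is, UMI numbers after a correction for repeated draws of the same UMI, and did not scale them. The submitters' processing notes name STAR 2.7.3a, Seurat 4 and hg38. Inverting this correction with 4096 possible UMIs gave whole numbers (tolerance 1e-06) for all 7245730 values above 0, and these whole UMIs were used for thinning. Spike-in rows (0.833% to 1.38% of counts) were left out of library sizes. Doublets were not called.

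Cells were selected with the cut-offs in the study's methods (2000 to 9000 features, under 40% mitochondrial counts), which left fewer cells in each experiment than the study analysed, and log-normalized to 10000. Scores used 24 expression bins per plate. GSVA was reimplemented with a Gaussian kernel and fitted separately to each experiment, with 64 of 65 epithelial genes and 100 (low resolution) or 97 (high resolution) of 115 mesenchymal genes. Peak angles are first-harmonic fits. Rounded plate sums were tested with edgeR 4.0.16 (quasi-likelihood, TMM, filterByExpr, threshold 0.05), with DESeq2 1.42.0 as an alternative. SE is the log2 fold change divided by the square root of F. Python 3.11.15 and R 4.3.3 were used. Named genes outside the list are the 10 with the highest and 5 with the lowest mean rho with the S score, the 10 other replication genes with the largest change past the threshold, 10 G2/M genes and 4 EMT markers. The members and lists were chosen with earlier results of these data known.

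The steps were tested on simulated data. For high against low resolution, with 200 of 12437 genes changed, edgeR recovered 76% of 2-fold and 29% of 1.5-fold changes at a dispersion of 0.01 with 1 false call, and 10% and 2% at 0.05 with 0 false calls, and the common dispersion of the plates was 0.0112. In simulated cells, the rho between the EMT score and the gradient was 0.968 to 0.979. The rho between recovered and true order was 0.973 to 0.995 over the S phase genes with a mean above 1 count per cell. Rarer genes were left out of this rho, so it does not cover their order. The simulated cells were also spread evenly around the cycle, whereas the plates held many cells called neither S nor G2/M.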

Additional observations from a re-analysis of the deposited data

Results flagged for a closer look

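The correlation of the S with the G2/M score among cells called S or G2/M was singled out because it had opposite signs in the experiments. It was 0.0557 and 0.0714 in low-resolution replicates 1 and 2, and -0.508 and -0.491 in high-resolution replicates 1 and 2. The difference was not tested. With all plates scored together it was -0.07, -0.19, -0.19 and -0.27, so the opposite sign was present only where each plate was scored alone. At 10000 UMIs per cell, with each plate scored alone, it was 0.08 and 0.08 against -0.53 and -0.48. Of the cells called S, 76.7% and 66.7% in the low-resolution and 46.4% and 72.9% in the high-resolution plates also had a G2/M score above 0, and of those called G2/M, 80% and 91.3% against 59.7% and 56.3% had an S score above 0.

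UBR7 had a rho with the EMT score of -0.0464 and -0.0546 in low-resolution replicates 1 and 2 and of 0.00854 and 0.0119 in high-resolution replicates 1 and 2. The difference was not tested.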

How the results depend on the processing

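No S phase gene fell past the threshold under any alternative, and between 14 and 28 rose. The replicate numbers are not stated to pair plates, and the deviations of same-numbered plates had a correlation of -0.0241. With the replicate block, 28 of the 42 genes rose and 2023 genes of all passed. All 21 called without the block were among the 28, and the others were MCM4, PCNA, RRM1, CLSPN, TIPIN, HELLS and WDR76. Leaving out each plate in turn gave 14 to 23 S phase genes, 982 to 1172 genes of all, and a median log2 fold change of 0.55 to 0.71. Over all genes the number was 982 without low-resolution replicate 1 and 987 without high-resolution replicate 2, against 1547. The sign changed only for genes that had not passed. It became negative at 10000 UMIs per cell for CASP8AP2 (-0.0519) and USP1 (-0.0353), and on leaving out a plate for CASP8AP2 (-0.125 to 0.273), USP1 (-0.0952 to 0.362) and E2F8 (-0.410 to 0.791). Of the 21 genes that rose, 9 were lost in at least 1 of 10 alternatives, namely BRIP1 in 8, CHAF1B in 7, EXO1 in 5, RFC2 in 4, CDCA7, PRIM1 and UHRF1 in 2 each, and CDC45 and DSCC1 in 1 each.

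The difference in the share of S cells was 8.55 points at 10000 UMIs per cell and 15.7 points with all plates scored together. The rho of the S with the G2/M score was 0.673 at 10000 UMIs. The rho of the S with the EMT score was 0.146 at 10000 UMIs, 0.149 without the mitochondrial limit, 0.139 without mitochondrial rows, 0.129 with z-scores, 0.0272 given the mitochondrial share and -0.0422 given the G2/M score. The median rho of single genes with the EMT score was 0.135 without the mitochondrial limit, and 0.0809 to 0.104 on leaving out a plate. The median peak angle was 5.25 degrees at 10000 UMIs and -0.37 to 3.32 on leaving out a plate, against 2.20. The order of the genes had a rho of 0.75 with the main order at 10000 UMIs and of 0.96 or more under the other alternatives. The cause of these changes was not tested. The scoring of all plates together and the correlation given the mitochondrial share were chosen after seeing the data.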
